A study of Homo sapiens with 8 samples.

Results

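Chemokines are small secreted proteins that steer white blood cells, and endothelial cells make several of them when the vessel wall is inflamed. CCL2 binds the receptor CCR2 and draws monocytes. CXCL8 (interleukin 8) acts through CXCR1 and CXCR2, and its relatives CXCL1, CXCL2, CXCL3 and CXCL5 act mainly through CXCR2. These relatives, like CXCL8, draw neutrophils. CX3CL1 (fractalkine) and CXCL16 are made as proteins anchored in the membrane, where they can hold cells, and are released when proteases cut them. In endothelial cells many of these genes are induced by interleukin 1 and tumour necrosis factor through the transcription factor NF-kB.

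These 8 chemokine genes (CCL2, CXCL1, CXCL2, CXCL3, CXCL5, CXCL8, CX3CL1 and CXCL16) were taken by symbol from the 27946 genes of the RNA-seq table, with the transcript of highest mean level kept for each. The study deleted either of 2 elements of the super-enhancer SE12313 on chromosome 16 from EA.hy926, an immortalized line made by fusing umbilical vein endothelial cells with lung carcinoma cells. E2 is the element with enhancer activity in the study's reporter assays, and SE12313-b is an element without activity there that was deleted as a negative control. The 8 libraries were from EA.hy926 control cells (2 libraries), 3 clonal CRISPR/Cas9 lines without E2 (ΔE2) and 3 without SE12313-b (ΔSE12313-b), all of total RNA depleted of ribosomal RNA. No treatment with a cytokine is given for any group. Each clonal line descends from 1 cell, and no source used here says that the control libraries came from separate cultures or states how the RNA controls were treated, so the p values measure the spread between these libraries, which in the control may be technical.

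Levels are FPKM, which divide the reads of a transcript by its exon length and by the size of the library, and the reads behind each value were recovered from the table. Libraries held from 12067557 to 19101152 reads, and both control libraries were the smallest. The control libraries differed from each other by little more than counting noise (chi-square per degree of freedom 1.19 over 12909 genes), while pairs of clones of a deletion differed by 3.98 to 22.8 on the same scale. ADAMTS18, the neighbouring gene that the study places under the super-enhancer, had 0.682 and 0.859 FPKM in the control and 0.087 to 0.232 FPKM over the 6 clones. Of the endothelial markers CDH5 (VE-cadherin) and TIE1 were abundant, at 102.6 ± 0.31 and 56.0 ± 1.04 FPKM in the control (SD, n = 2), whereas KDR was at 0.188 FPKM and CLDN5 had 0 reads in every library.

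Of the 8 chemokines, 5 lie in the CXC cluster on the long arm of chromosome 4 (4q13.3), and the stretches upstream of their starts and of that of CXCL16 were read from GRCh37, the build of the files. The 150 bases upstream of the starts of CXCL8 and CXCL2 are shown because these are the chemokines of the cluster whose levels passed a test, and those of CXCL1 for comparison. They are chr4:74606073-74606222 (plus strand), chr4:74964998-74965147 (minus strand) and chr4:74734959-74735108 (plus strand), written 5′ to 3′ along each gene's strand, with matches to an NF-kB motif in capitals.
CXCL8: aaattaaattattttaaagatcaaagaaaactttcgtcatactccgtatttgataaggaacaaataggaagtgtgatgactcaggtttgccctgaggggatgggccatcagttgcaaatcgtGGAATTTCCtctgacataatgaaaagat
CXCL2: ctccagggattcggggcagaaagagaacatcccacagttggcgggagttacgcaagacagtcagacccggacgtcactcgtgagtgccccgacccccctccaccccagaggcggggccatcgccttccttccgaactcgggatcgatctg
CXCL1: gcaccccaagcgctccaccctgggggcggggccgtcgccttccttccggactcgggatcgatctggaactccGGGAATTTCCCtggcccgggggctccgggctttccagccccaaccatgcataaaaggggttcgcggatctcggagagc
The motifs were searched on both strands in the 250 bases upstream of the start. GGAATTTCC was found 28 to 20 bases upstream of CXCL8, 77 to 69 bases upstream of CXCL1 and 38 to 30 bases upstream of CXCL5, and 0.355% of the 27862 upstream windows of that length in the table hold it. The wider NF-kB consensus, which overlaps it in CXCL1 and CXCL5, was found in CXCL1, CXCL5 and CXCL16 and in 5.2% of all windows. TGANTCA, the letters bound by AP-1 factors, was found in CXCL8, 74 to 68 bases upstream (6.13% of all windows). GGGCGG, a box bound by Sp1, was found in CXCL1, CXCL3 and CXCL16 (42.3% of all windows). These matches are letters only, and the windows depend on the start each transcript is listed with. A run of 16 bases that the windows of CXCL1 and CXCL2 share lies 101 to 86 bases upstream of the start of CXCL1 but 16 to 1 bases upstream of that of CXCL2, so the stretch that follows it in CXCL1, which holds GGAATTTCC, was not searched in CXCL2.

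In the control cells CXCL8 was the most abundant of the 8 transcripts per length, with 8.11 ± 0.19 FPKM (SD, n = 2), followed by CCL2 (4.90 ± 0.132 FPKM) and CXCL2 (1.55 ± 0.231 FPKM). CXCL3, CXCL16 and CXCL1 had means of 0.495, 0.387 and 0.343 FPKM, an order within their spread, and CXCL5 and CX3CL1 had 0 reads. Among all genes tested, the control level of CXCL8 was at percentile 58.6 and that of CCL2 at percentile 43.6. In both deletions CCL2 was the most abundant, at percentile 91.0 in ΔE2 and 72.8 in ΔSE12313-b, and CXCL8 was at percentile 30.7 and 5.98.

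**Figure D1:**
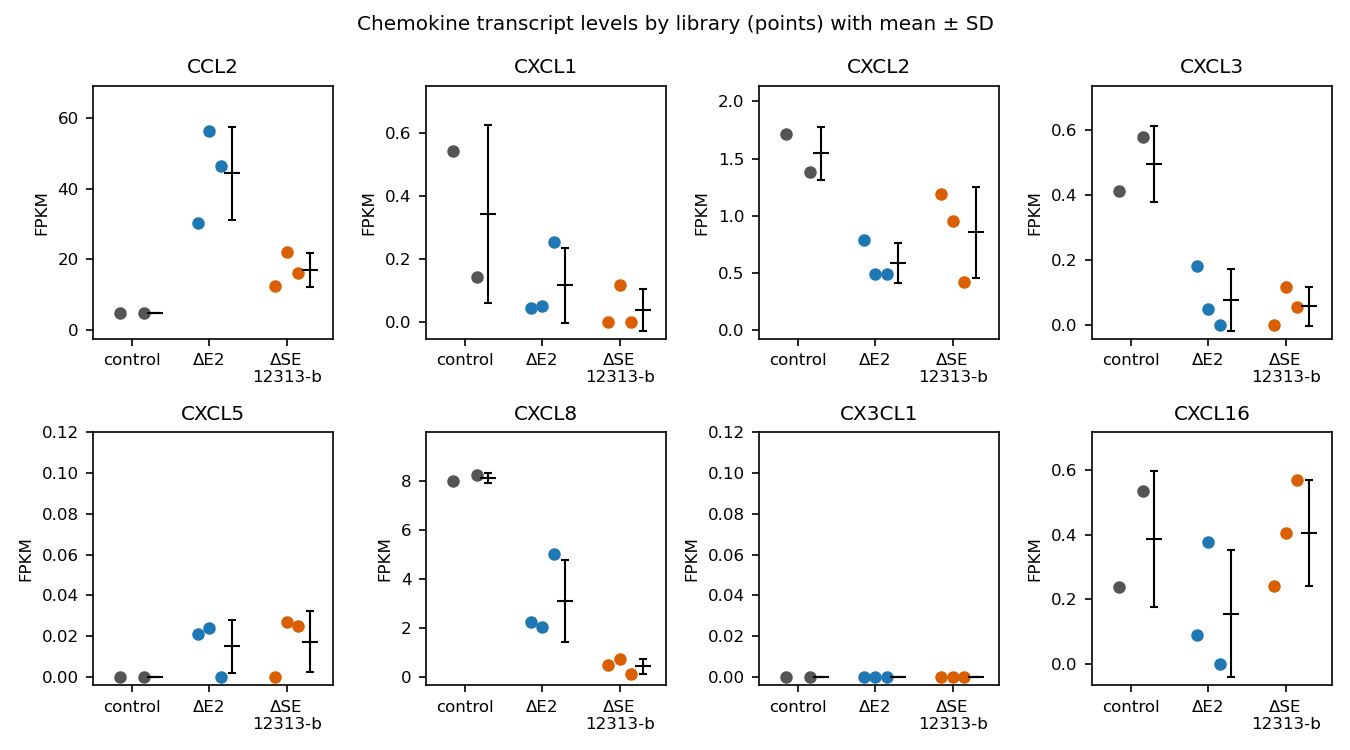
Level of each of the 8 chemokine transcripts (FPKM, vertical axis, a scale of its own in each panel) in 2 control, 3 ΔE2 and 3 ΔSE12313-b libraries. Points are libraries and black marks are means with SD. CCL2 was at 4.80 to 4.99 FPKM in the control and 12.7 FPKM or more in all 6 clones, CXCL8 was below its control levels in all 6 clones, and CX3CL1 was at 0 throughout.

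A gene was tested when 2 or more libraries reached an FPKM of 0.5, which held for 13790 genes and for 4 of the 8 chemokines (CCL2, CXCL8, CXCL2 and CXCL16). The test was limma on log2(FPKM + 0.1), with p values adjusted by the Benjamini-Hochberg method over all genes tested. A gene was called when the adjusted p was under 0.05 and the change on that log2 scale at least 2-fold. Folds of means given below are ratios of mean FPKM and can differ from the log2 changes of the test. Both deletions were set against the same 2 control libraries, so their changes are not independent. No group of clonal lines without a deletion is among the libraries. Whether a change shared by both deletions came with cloning or editing, rather than with the loss of an element, was therefore not tested. In ΔE2, 1 chemokine was called higher (CCL2) and 1 lower (CXCL2), where 11.2% of all genes tested were called higher and 8.36% lower. In ΔSE12313-b, 1 was called higher (CCL2) and 1 lower (CXCL8), against 14.7% and 7.83% of all genes. Between the deletions 2 were called, both higher in ΔE2 (CCL2 and CXCL8), against 1.6% of all genes called higher in ΔE2 and 2.63% lower. With so few members these counts say little beside the background, and the results lie in the single genes. The median change of all genes tested was 0.14 in ΔE2, 0.27 in ΔSE12313-b and −0.11 between the deletions on the log2 scale, and changes relative to it are given where a gene was called.

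CCL2 (chr17:32582296-32584220, plus strand, 17q12) rose in both deletions, and more in ΔE2. The control libraries held 4.99 and 4.80 FPKM (47 and 43 reads). The ΔE2 lines held 30.3, 56.4 and 46.3 FPKM (430, 716 and 468 reads), and the ΔSE12313-b lines 12.7, 22.1 and 16.3 FPKM (151, 243 and 192 reads). The 3 groups did not overlap, as the lowest ΔE2 line was above the highest ΔSE12313-b line and that group was above the control. The mean rose 9.06-fold in ΔE2, and the log2 change in the test was 3.11 (SE 0.29, 95% confidence interval 2.44 to 3.77, adjusted p = 7.93e-05). In ΔSE12313-b the mean rose 3.48-fold, with a log2 change of 1.74 (SE 0.29, 1.08 to 2.40, adjusted p = 0.00121). The mean in ΔE2 was 2.61-fold that in ΔSE12313-b, and the tested log2 difference of 1.37 also passed (SE 0.26, 0.78 to 1.96, adjusted p = 0.00752). Relative to the median of all genes these changes were 2.97, 1.47 and 1.48.

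As the libraries are bulk RNA, more cells that make a transcript and more of it per cell cannot be told apart. Among leukocyte markers, PTPRC (CD45), the marker of nearly all white blood cells, had 1 read in all 8 libraries together, CD14 3 reads and CD3E 0 reads. LYZ (lysozyme) had 2 to 6 reads per library in the control (0.211 ± 0.144 FPKM), 20 to 69 in ΔE2 (1.66 ± 0.988 FPKM) and 1 to 5 in ΔSE12313-b (0.158 ± 0.101 FPKM). It entered the test through the ΔE2 lines alone, where it is high, so its call in ΔE2 is not independent of that choice and no p is given. CD68, a lysosomal protein of macrophages that other cells also make, was at 24.4 to 37.5 FPKM in the group means and was not called in either deletion. The leukocyte list as a whole had 6 of 8 genes with reads and 2 tested, with summed levels of 28.4 to 30.3 FPKM (control), 25.1 to 27.4 (ΔE2) and 36.3 to 40.9 (ΔSE12313-b). Endothelial markers summed to 317.5 and 317.9 FPKM in the control. Of 11 tested, 3 were called higher in ΔE2 (PECAM1, ESAM and ERG) and 2 in ΔSE12313-b (PECAM1 and ERG). VWF was called lower in both and EMCN lower in ΔE2. EMCN reached 0.5 FPKM only in the ΔSE12313-b lines, with 17 to 18 reads in the control and 0 to 11 in ΔE2. Of all genes tested, 11.2% were called higher and 8.36% lower in ΔE2, and 14.7% and 7.83% in ΔSE12313-b. The endothelial sum was 340.1, 534.8 and 349.1 FPKM in ΔE2 replicates 1, 2 and 3, so that the line with the highest CCL2 also had the highest sum. Without that line the log2 change of CCL2 in ΔE2 was 2.91 (adjusted p = 0.000238). In ΔSE12313-b the sum was 405.8, 342.4 and 465.9 FPKM, lowest in replicate 2, which had the highest CCL2. Keratins of simple epithelium rose in both deletions, with 3 of 3 tested epithelial markers called higher (KRT7, KRT8 and KRT18), beside the shares of all genes above. The sum of the epithelial list went from 360.7 to 362.9 FPKM in the control to 1084.5 to 1210.1 in ΔE2 and 811.4 to 1069.4 in ΔSE12313-b. EPCAM and CLDN4, too low to be tested, had lower means in both deletions than in the control. These were 0.399, 0.186 and 0.0497 FPKM for EPCAM and 0.329, 0.0417 and 0.153 FPKM for CLDN4 (control, ΔE2, ΔSE12313-b). KRT19 had 0 reads in the control, 0 to 4 per library in ΔE2 and 2 in each ΔSE12313-b library. CDH1 and CLDN3 had 0 reads. The part of these marker changes in the chemokine changes was not tested.

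CXCL8 (chr4:74606223-74609433, plus strand), which carries GGAATTTCC and TGANTCA in the window shown above, fell in ΔSE12313-b. The control libraries held 7.97 and 8.24 FPKM (172 and 169 reads). The ΔE2 lines held 2.25, 2.03 and 5.01 FPKM (73, 59 and 116 reads), and the ΔSE12313-b lines 0.476, 0.715 and 0.111 FPKM (13, 18 and 3 reads). The 3 groups did not overlap, with the control highest and ΔSE12313-b lowest, and ΔE2 replicate 3 stood nearer to the control than the other ΔE2 lines. The mean was 18.7-fold lower in ΔSE12313-b, with a log2 change of −4.15 in the test (SE 0.58, −5.49 to −2.81, adjusted p = 0.000513). In ΔE2 the mean was 2.62-fold below that of the control, and the log2 change of −1.48 (SE 0.58, −2.82 to −0.14) did not pass after adjustment (adjusted p = 0.0614). It passed in 9 of 21 other settings, among them without ΔE2 replicate 3 (−1.88, adjusted p = 0.0353). The mean of CXCL8 was 7.14-fold higher in ΔE2 than in ΔSE12313-b (log2 difference in the test 2.67, SE 0.52, 1.47 to 3.87, adjusted p = 0.00852). Relative to the median of all genes the changes were −1.62 in ΔE2, −4.42 in ΔSE12313-b and 2.78 between the deletions. The line with 3 reads, ΔSE12313-b replicate 3, is at the limit of detection (a floor of 3 reads per library), and without it the change in ΔSE12313-b was −3.58 (adjusted p = 0.000408). A shorter CXCL8 transcript (NM_001354840) shares exons with the main one, so its reads are not separate evidence, and its means were 6.12 ± 1.10, 1.97 ± 0.659 and 0.364 ± 0.232 FPKM in control, ΔE2 and ΔSE12313-b. When every transcript was tested with limma, it changed by −1.62 (adjusted p = 0.0182) in ΔE2 and −3.9 (adjusted p = 0.000153) in ΔSE12313-b. In that fit the main transcript changed by −1.48 (adjusted p = 0.0471) in ΔE2.

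**Figure D2:**
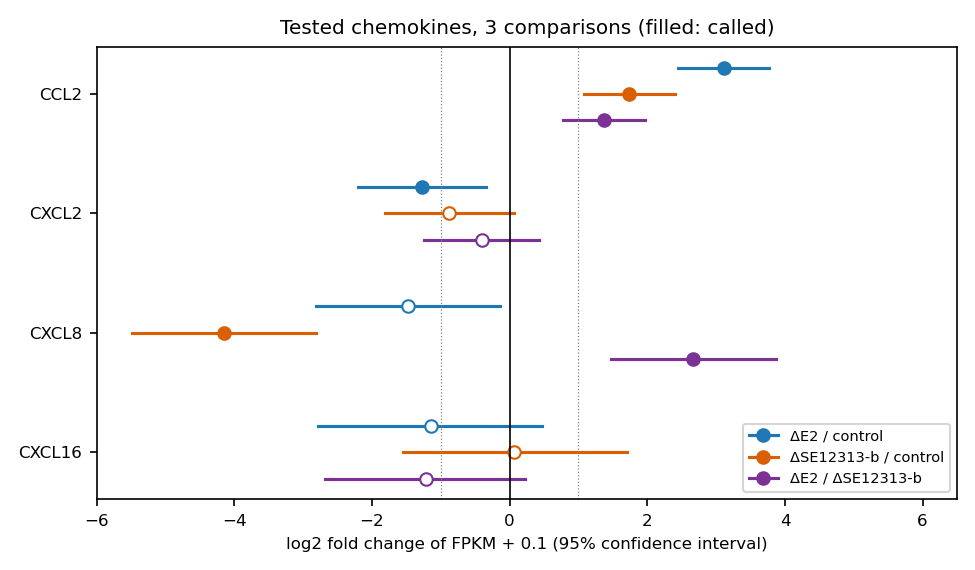
Log2 fold change of FPKM + 0.1 (horizontal axis) of the 4 tested chemokines in 3 comparisons, with 95% confidence intervals from limma. Filled points were called, open points were not, dotted lines mark 2-fold, and CCL2 is above 0 in all 3 comparisons, while CXCL8 is at −4.15 in ΔSE12313-b and −1.48 in ΔE2.

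CCL2 and CXCL8 thus changed rank against each other. The ratio of CCL2 to CXCL8, both in FPKM, was 0.626 and 0.583 in the control libraries, 13.5, 27.8 and 9.24 in the ΔE2 lines, and 26.6, 30.9 and 146.7 in the ΔSE12313-b lines. The control ratios were below 1 and all 6 clones were at 9.24 or above, and the ranges of both deletions overlapped. Of the summed FPKM of the 8 chemokines, CCL2 made up 31.4% and 30.6% in the control, 88.9% to 94.9% in ΔE2 and 86.9% to 93.2% in ΔSE12313-b. CXCL8 made up 50.3% and 52.5% in the control, 3.42% to 9.63% in ΔE2 and 0.636% to 3.27% in ΔSE12313-b. The sum itself was 15.9 and 15.7 FPKM in the control, 33.7 to 59.4 in ΔE2 and 14.6 to 24.4 in ΔSE12313-b, so that it was higher in all ΔE2 lines and overlapped the control in ΔSE12313-b.

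**Figure D3:**
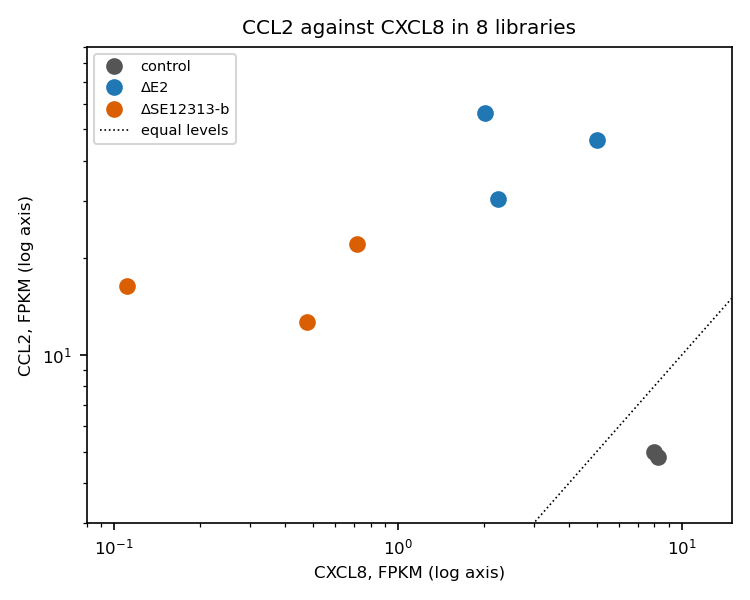
CCL2 level against CXCL8 level in FPKM (log axes), 1 point per library, with a dotted line where both are equal. Both control libraries lie below the line (ratios 0.626 and 0.583) and all 6 clones above it, ΔE2 at higher CCL2 and higher CXCL8 than ΔSE12313-b.

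CXCL2 (chr4:74962754-74964997, minus strand), a neutrophil chemokine at the other end of the cluster from CXCL8, fell in ΔE2 by a call near the threshold. The control libraries held 1.71 and 1.39 FPKM (26 and 20 reads). The ΔE2 lines held 0.787, 0.488 and 0.491 FPKM (18, 10 and 8 reads), and the ΔSE12313-b lines 1.20, 0.959 and 0.421 FPKM (23, 17 and 8 reads). All 6 clones were below both control libraries, and the deletions overlapped. The log2 change in ΔE2 was −1.28 (SE 0.40, −2.21 to −0.35, adjusted p = 0.0282, 2.63-fold lower mean), or −1.42 relative to the median of all genes. The call was lost without either control library (−1.14, adjusted p = 0.151, without replicate 1, and −1.42, adjusted p = 0.0839, without replicate 2), without ΔE2 replicate 2 (−1.18, adjusted p = 0.0646) and without ΔE2 replicate 3 (−1.18, adjusted p = 0.0773). In ΔSE12313-b the log2 change was −0.88 (SE 0.40, adjusted p = 0.0952), and the deletions differed by −0.40 (adjusted p = 0.453).

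CXCL3 and CXCL1, the neighbours of CXCL2 in sequence and in function, were too low to be tested. CXCL3 (chr4:74902312-74904490, minus strand) had 6 and 8 reads in the control (0.412 and 0.578 FPKM), 4, 1 and 0 reads in ΔE2 and 0, 2 and 1 reads in ΔSE12313-b. Its FPKM was lower in all 6 clones than in either control library, and in ΔSE12313-b, where every library was at or under the floor of 3 reads, its mean was at least 2.95-fold lower when each is set to 3 reads. With every gene that had reads in at least 2 libraries in the fit, its log2 changes were −1.86 (adjusted p = 0.0171) in ΔE2 and −1.97 (adjusted p = 0.0119) in ΔSE12313-b, sizes that depend on the pseudocount of 0.1 FPKM. CXCL1 (chr4:74735109-74737019, plus strand) had 8 and 2 reads in the control, 1, 1 and 4 in ΔE2 and 0, 2 and 0 in ΔSE12313-b. The control replicates thus differed as much as the groups, ΔE2 replicate 3 (0.253 FPKM) was above control replicate 2 (0.143 FPKM), and with no filter the changes were −1.0 (adjusted p = 0.21) and −1.61 (adjusted p = 0.0557). Summed over CXCL1, CXCL2 and CXCL3 there were 40 and 30 reads in the control, 23, 12 and 12 in ΔE2 and 23, 21 and 9 in ΔSE12313-b. These 3 genes are close copies, and 2.5% of the 75-base stretches of the CXCL2 transcript, 2.3% of those of CXCL3 and 0.273% of those of CXCL1 occur in another of the 3, so a small part of their reads could be split between them.

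CXCL5 (chr4:74861359-74864446, minus strand) had 0 reads in the control and 1, 1 and 0 in ΔE2 and 0, 1 and 1 in ΔSE12313-b. No difference was detectable at this depth. CX3CL1 (chr16:57406370-57418960, plus strand), the ligand of CX3CR1, had 0 reads in all 8 libraries, where 3 reads would be 0.0491 to 0.0778 FPKM. It lies on the same chromosome arm as the deleted elements. CXCL16 (chr17:4636824-4643223, minus strand), the ligand of CXCR6, held 0.238 and 0.536 FPKM in the control (7 and 15 reads), 0.090, 0.378 and 0 FPKM in ΔE2 (4, 15 and 0 reads) and 0.241, 0.407 and 0.570 FPKM in ΔSE12313-b (9, 14 and 21 reads). All 3 groups overlapped, and the log2 changes of −1.15 (SE 0.70, adjusted p = 0.199) and 0.07 (adjusted p = 0.936) did not pass. Its last 82 bases overlap those of MED11 on the other strand, a gene at 3.67 to 5.55 FPKM, and whether the counting used strand is not stated in the sources used here, so its few reads may not all be its own.

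The cluster on 4q13.3 spans 358.8 kb from the start of CXCL8 to that of CXCL2. Of the 12 genes in it and within 200 kb of it, CXCL6, PF4, PF4V1, PPBPP2 and RASSF6 had 0 reads in all libraries and PPBP 1 read. MTHFD2L, a mitochondrial folate enzyme next to CXCL2, had means of 1.67 FPKM (control), 2.51 FPKM (ΔE2) and 2.04 FPKM (ΔSE12313-b), and its log2 changes of 0.55 (adjusted p = 0.0423) and 0.27 (adjusted p = 0.261) stayed under 2-fold, above 0 where CXCL2 was below. Over the 300 tested genes of the long arm of chromosome 4, ΔE2 had a median log2 change of 0.27 and ΔSE12313-b one of −0.02. Over the 597 of the long arm of chromosome 17, where CCL2 lies, it was 0.14 and 0.31. For ΔE2 against ΔSE12313-b the median was 0.33 on the long arm of chromosome 4 and −0.13 on that of chromosome 17. The medians of all genes tested were 0.14 in ΔE2, 0.27 in ΔSE12313-b and −0.11 between the deletions. The part of these arm medians in the chemokine changes was not tested.

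**Figure D4:**
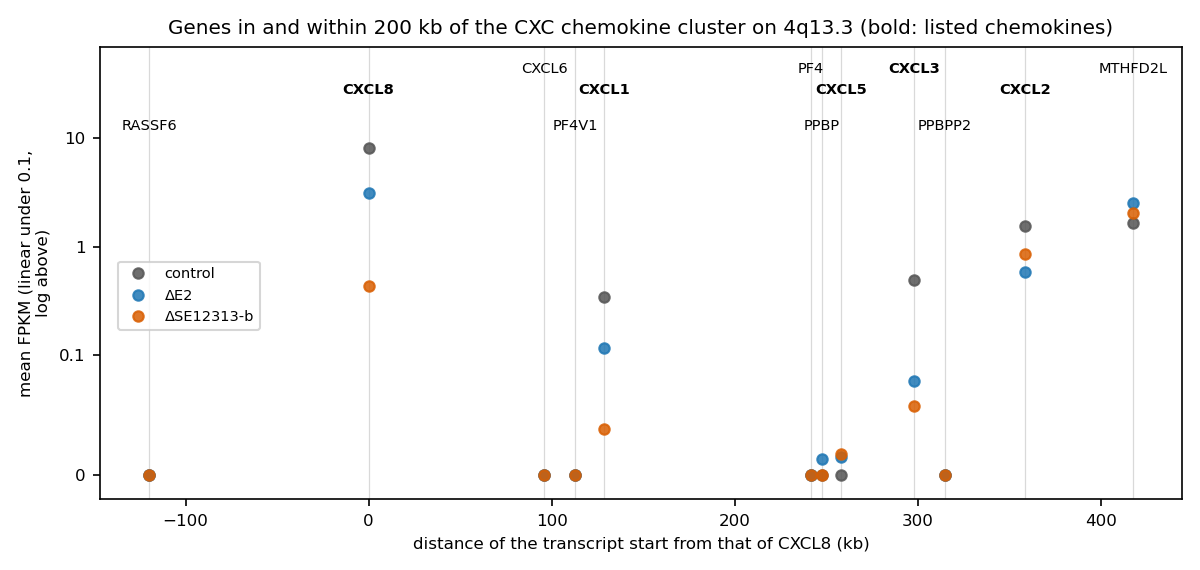
Mean FPKM (vertical axis, linear under 0.1 and logarithmic above) of 12 genes in and near the CXC chemokine cluster by the distance of their start from that of CXCL8 (kb, horizontal axis), with a point for each group. CXCL8, CXCL1, CXCL3 and CXCL2 have their highest mean in the control, while MTHFD2L has its lowest there.

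Of the 40 other chemokine genes listed, 11 had any reads and 2 were tested. CCL26 (eotaxin-3, a ligand of CCR3) had 1 read in each control library (0.145 ± 0.00495 FPKM), under the floor of 3 reads, 6 to 13 reads in the ΔE2 lines (0.970 ± 0.306 FPKM) and 5 to 11 in the ΔSE12313-b lines (0.820 ± 0.446 FPKM). It entered the test through the clones alone, so no fold or p is given against the control. CCL5 (RANTES) was at 1.39 ± 0.143 FPKM in the control (20 and 22 reads) and 1.21 ± 0.525 in ΔE2 (16 to 38 reads). It fell in ΔSE12313-b to 0.210 ± 0.051 (−2.27, adjusted p = 0.000796), where 3 to 5 reads per library lie at or just above the floor of 3. The difference between the deletions was also past the threshold (2.02, adjusted p = 0.00331). CCL7, the monocyte chemokine beside CCL2, had 6 reads in all libraries together. Of 23 chemokine receptors, 9 had reads and 3 were tested. CCR2 and CXCR1, the receptors of CCL2 and CXCL8, had 0 reads, as did CXCR6 and the scavenger ACKR1, and CXCR2 had 10 reads and CX3CR1 1 read in all libraries. ACKR4, a scavenger of homeostatic chemokines, had 4 and 5 reads in the control (0.156 ± 0.0297 FPKM), 39 to 52 in ΔE2 (1.19 ± 0.384 FPKM) and 26 to 39 in ΔSE12313-b (0.929 ± 0.158 FPKM), and it too entered the test through the clones alone. CCRL2, a non-signalling receptor that binds chemerin, rose from 4.89 ± 0.607 to 11.0 ± 1.06 FPKM in ΔSE12313-b (1.15, adjusted p = 0.000867) and was 5.28 ± 1.16 in ΔE2.

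Interleukin 1, an inducer of these chemokines, fell in both deletions. The mean FPKM of IL1B was 160.1 ± 3.68 for the control against 3.34 ± 0.504 for ΔE2 and 3.78 ± 1.13 for ΔSE12313-b, log2 changes of −5.55 and −5.41 (adjusted p = 1.13e-06 and 1.28e-06). IL1A fell from 19.3 ± 0.81 to 8.30 ± 1.34 and 5.32 ± 0.454 FPKM (−1.22 and −1.84, adjusted p = 0.000219 and 2.12e-05). TNF had 2 reads and the receptor IL1R1 1 read in all libraries together, while the TNF receptor TNFRSF1A was at 46.2 to 75.4 FPKM in the group means. In this list of 16 inducers and receptors, 11 were tested, of which 1 was called higher and 2 lower in ΔE2 and 2 higher and 2 lower in ΔSE12313-b. Of all genes tested, 11.2% and 8.36% were called higher and lower in ΔE2, and 14.7% and 7.83% in ΔSE12313-b. The higher ones were TLR3, a sensor of double-stranded RNA, in ΔE2 (1.09, adjusted p = 0.00481), and the adaptor MYD88 (1.11, adjusted p = 0.000308) and the kinase IRAK1 (1.25, adjusted p = 9.79e-05) in ΔSE12313-b.

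Of the 16 NF-kB factors and their regulators, all tested, 2 were called lower in both deletions and 1 higher in ΔSE12313-b, counts that stand beside 8.36% and 7.83% of all genes called lower and 14.7% called higher in ΔSE12313-b. RELB, a subunit of the non-canonical pathway, fell in both (log2 changes −1.52 and −1.51, adjusted p = 0.000473 and 0.000399). NFKBIZ, a nuclear IkB protein that helps induce a subset of target genes, fell as well (−1.07 and −1.89, adjusted p = 0.000724 and 3.16e-05), and CHUK, the kinase IKK-alpha, rose in ΔSE12313-b (1.07, adjusted p = 0.000224). The other subunits stayed under 2-fold, in both directions, and were not called. RELA was at 33.5 ± 1.20, 30.2 ± 2.07 and 23.5 ± 1.81 FPKM in control, ΔE2 and ΔSE12313-b (−0.15 and −0.51, adjusted p = 0.192 and 0.00189). NFKB1 was at 7.04 ± 0.412, 13.2 ± 1.12 and 13.5 ± 1.76 FPKM (0.90 and 0.92, adjusted p = 0.00065 and 0.000464). REL changed by 0.63 and 0.80 (adjusted p = 0.0205 and 0.00624) and NFKB2 by −0.64 and −0.49 (adjusted p = 0.00718 and 0.0193). The list had a median log2 change of −0.04 for ΔE2 and 0.17 for ΔSE12313-b. Of 18 other NF-kB target genes, 12 were tested, with medians of −0.84 and −0.54, and 4 were called lower in ΔE2 and 3 lower and 1 higher in ΔSE12313-b. Over all genes tested the medians were 0.14 and 0.27, with 8.36% called lower in ΔE2 and 7.83% lower and 14.7% higher in ΔSE12313-b. CSF3 (G-CSF, a growth factor of neutrophils) fell in both (−2.82 and −2.07, adjusted p = 7e-06 and 2.79e-05), as did the adaptor TRAF1 (−1.14 and −1.93, adjusted p = 0.0339 and 0.00287). In ΔE2 LIF (−2.22, adjusted p = 0.00246) and the leukocyte adhesion molecule ICAM1 (−1.95, adjusted p = 0.00133) fell, and in ΔSE12313-b CSF2 (GM-CSF) rose (1.80, adjusted p = 0.015). IL6, the third gene called lower in ΔSE12313-b, had 8 and 9 reads in the control and 2 to 4 there, and entered the test through the control libraries alone, where it is high. SELE (E-selectin) had 0 reads and VCAM1 1 read in all libraries.

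**Figure D5:**
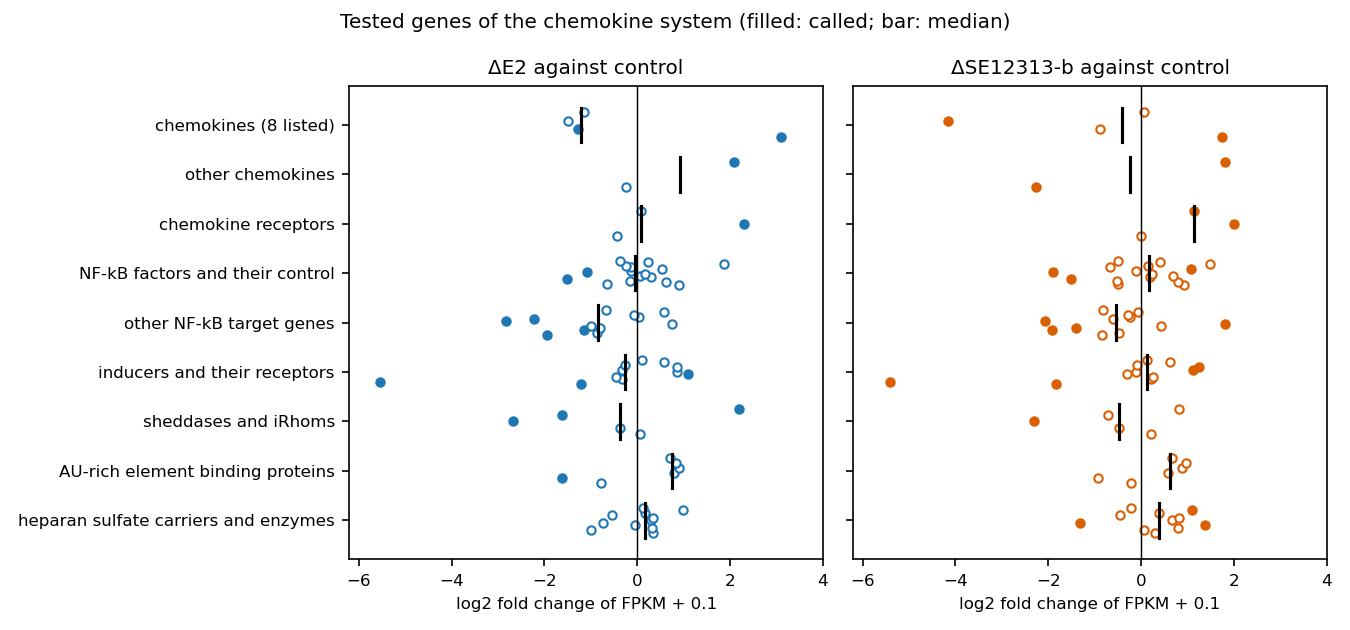
Log2 fold change of FPKM + 0.1 (horizontal axis) of each tested gene of 9 groups of the chemokine system, in ΔE2 (left) and ΔSE12313-b (right) against the same control. Filled points were called and bars are group medians, and IL1B, at −5.55 and −5.41, is the leftmost point of both panels. The filled points and medians include CCL26 and ACKR4 (both panels) and IL6 (filled on the right). These entered the test only through libraries where they are high, so their calls are not independent of that choice.

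The list of the proteases that release CX3CL1, CXCL16 and other membrane proteins, with their partners and an inhibitor, had 5 genes, all tested. ADAM10 and ADAM17, which cut both ligands, were not called. ADAM17 fell by less than 2-fold in both deletions (−0.37 and −0.47, adjusted p = 0.0231 and 0.00736), and ADAM10 changed by 0.06 and 0.22 (adjusted p = 0.701 and 0.158). RHBDF1, an iRhom that guides ADAM17 to the cell surface, fell from 72.5 ± 2.74 to 11.6 ± 3.30 FPKM in ΔE2 and also fell in ΔSE12313-b (−2.67 and −2.30, adjusted p = 0.000124 and 0.000203), and its relative RHBDF2 fell in ΔE2 (−1.62, adjusted p = 3.44e-05). TIMP3, an inhibitor of ADAM17, rose in ΔE2 (2.19, adjusted p = 0.00194) and was 0.82 above the control in ΔSE12313-b (adjusted p = 0.0967). Of 6 proteins that bind AU-rich elements, through which the RNAs of CXCL8 and other cytokines are degraded, 1 was called. It was ZFP36L1, lower in ΔE2 (−1.61, adjusted p = 0.000164). The list medians were 0.75 and 0.63, where those of all genes tested were 0.14 and 0.27. Of 12 carriers and enzymes of heparan sulfate, the polysaccharide that holds chemokines on the endothelial surface, 11 were tested and 0 were called in ΔE2 by limma, where 8 had an unadjusted p under 0.05 and 1 (SDC3) was called by voom on the recovered reads. In ΔSE12313-b GPC1 (1.38, adjusted p = 0.000394) and HS6ST1 (1.10, adjusted p = 0.00108) rose and EXT1, a polymerase of the chain, fell (−1.31, adjusted p = 4.55e-05). The shares of all genes tested that were called higher and lower were 11.2% and 8.36% in ΔE2, and 14.7% and 7.83% in ΔSE12313-b. With lists this small, the counts say little beside those shares. Set against the median of all genes, the rises of TLR3 in ΔE2 (0.95) and of CCRL2 (0.88), CHUK (0.80), MYD88 (0.84), IRAK1 (0.98) and HS6ST1 (0.83) in ΔSE12313-b were under 2-fold, as were those of the markers PECAM1 (0.97) and ESAM (0.94) in ΔE2 and of ERG (0.82) and KRT18 (0.87) in ΔSE12313-b.

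As a description, the 2 genes with the highest correlation to each tested chemokine over the 8 libraries were sought among the 12028 genes whose mean FPKM reached 1. For CCL2 these were ITGA6 (Pearson r = 0.989) and NFAT5 (0.988), for CXCL8 ADAMTS6 (0.993) and VEGFC (0.989), for CXCL2 ACVR2B (0.958) and ANKMY1 (0.944), and for CXCL16 IDNK (0.935) and PGM1 (0.934). Most of the named genes do not stand apart from the next ones. For CCL2, 8 genes (the named included) reached an r within 0.01 of that of NFAT5 or higher. Counted likewise, these were 7 for VEGFC with CXCL8, 5 for ANKMY1 with CXCL2 and 3 for PGM1 with CXCL16. The count was 2 for ADAMTS6 with CXCL8, and 1 for ACVR2B with CXCL2, which is ACVR2B itself. The points share group, so genes that differ between the same groups correlate, and between the chemokines themselves r was −0.81 for CCL2 with CXCL2, −0.25 for CCL2 with CXCL8 and 0.44 for CXCL2 with CXCL8.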

How the data were processed

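The 8 libraries were made from EA.hy926 RNA after removal of ribosomal RNA (2 control, 3 ΔE2 and 3 ΔSE12313-b). Per the submitters' processing notes and the study's methods, reads were trimmed with Trim Galore 0.4.4 and mapped to GRCh37 with STAR 2.5.4b. The authors deposited FPKM for 65572 RefSeq transcripts, and the tool, RefSeq release and strand setting behind these values are not given in the sources used here. The authors' own calls rested on other counts, which were not used here.

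The transcript with the highest mean was kept for each of 27946 genes. FPKM times transcript length gave whole reads, within 0.1 read, for 99.995% to 99.998% of the values checked per library. These reads served for depth, for floors (3 reads per library, counting error only) and for limma's voom as an alternative. The 13790 genes that reached an FPKM of 0.5 in 2 or more libraries entered limma 3.58.1 (R 4.3.3) as log2(FPKM + 0.1) (3 groups in 1 model, variance trend, two-sided), with Benjamini-Hochberg adjustment over all of them. A fold change on this scale understates that of low genes. The limma step was run on simulated reads that had the same spread in every group, unlike these libraries. That run does not check the calls where the clones vary more than the control. Gene lists were described by counts and medians. The named genes are the 8 chemokines, up to 6 called members per list by size of change, genes near the cluster on 4q13.3 that have reads, and the 2 genes most like each tested chemokine, and other genes were named after their values were seen. The members and lists were chosen with earlier results of these data known. Motifs were searched in 250 bases upstream of each start. The sequence upstream of CCL2 is not reported here.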

Additional observations from a re-analysis of the deposited data

Results flagged for a closer look

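For 2 chemokines the changes of the deletions against their shared control differed by a direct test between the deletions (limma, adjusted over all genes tested). CCL2 was higher in ΔE2 than in ΔSE12313-b by 1.37 on the log2 scale (adjusted p = 0.00752), with each ΔE2 line above each ΔSE12313-b line. CXCL8 was higher in ΔE2 by 2.67 (adjusted p = 0.00852), again with no overlap of the lines. The groups of 2 and 3 libraries are too small for a test of single outlying libraries.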

How the results depend on the processing

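CCL2 in all 3 comparisons, and CXCL8 in ΔSE12313-b and between the deletions, kept their direction and their side of the threshold under all 21 alternatives. Among these, calling at 1.5-fold reuses the main fit and could not lose a gene called at 2-fold. The log2 change of CCL2 ranged from 2.90 to 3.36 in ΔE2, from 1.44 to 1.93 in ΔSE12313-b and from 1.17 to 1.62 between the deletions, and that of CXCL8 from −4.56 to −2.69 in ΔSE12313-b and from 1.46 to 3.08 between the deletions. The count of chemokines called in ΔE2 went from 2 to 1 with a mean FPKM of at least 1 or an adjusted p under 0.01, and lay from 1 to 3 when 1 library was left out. CXCL2 in ΔE2 was lost in 6 of 20 alternatives (adjusted p 0.00558 to 0.151), among them a pseudocount of 1 (−0.68). CXCL8 in ΔE2 passed in 9 of 21 (adjusted p 0.00291 to 0.182), among them voom on the recovered reads (−1.57, adjusted p = 0.00291). CXCL2 in ΔSE12313-b passed when each library was centred on its median (−1.16, adjusted p = 0.0427; range over the alternatives 0.0427 to 0.319), and CXCL16 in ΔE2 without ΔE2 replicate 2 (−1.75, adjusted p = 0.0446; range 0.0446 to 0.448). CXCL16 in ΔSE12313-b turned to −0.22 with centring and ranged from −0.38 to 0.33 when 1 library was left out. The cause of these shifts was not tested.

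Centring changed the balance of calls over all genes, from 1544 higher and 1153 lower to 1170 and 1464 in ΔE2, from 2032 and 1080 to 1201 and 1570 in ΔSE12313-b, and from 221 and 362 to 287 and 244 between the deletions. Quantile normalization gave 1309 and 1385, 1400 and 1398, and 240 and 260. Same-numbered libraries did not vary together (correlations −0.08 to 0.107), so the numbers were not taken as pairs. With the replicate block 2 chemokines were called in each comparison, and CXCL8 changed by −1.39 in ΔE2 and −4.06 in ΔSE12313-b. Depth limits CXCL1, CXCL3, CXCL5, CX3CL1 and CXCL16, which had 0 to 21 reads per library.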
